A study of Rattus norvegicus with 8 samples.

Results

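Cholesterol handling was followed through 32 genes that make, sense, move, store or export cholesterol. They were taken from a list of gene names: 18 enzymes of synthesis, 5 regulators, 4 genes of uptake and intracellular transport, and 5 of efflux and storage. Of these, 31 had deposited values, out of 12765 named genes with values; Srebf1 matched no probe. The samples were rat tissues and cells measured on 8 one-colour arrays, 1 array for each of 8 groups. All animals were Sprague-Dawley. In adult females the left sciatic nerve was cut at mid-thigh, and at day 1 its proximal and distal segments were compared with the uncut right nerve, the contralateral control, whose label mentions a PBS injection site. Spinal cord, at day 5, was labelled dorsal hemisection or C-level control; the label counts the days from an injection and the protocol from an injury. Tissue from 3 animals was pooled for each nerve and each cord sample. Schwann cells, which wrap and myelinate the axons of peripheral nerve, came from sciatic nerves of pups at postnatal day 1 to 3, were cleared of fibroblasts with AraC, a Thy1.1 antibody and complement, and were used at passages 3 to 7 in medium with serum, pituitary extract and 4 µM forskolin. They were left unstimulated and taken at 24 h, or were given 5 µg/ml of S100A8/A9, a complex of 2 calcium-binding proteins abundant in neutrophils, for 1 h or 24 h. The single unstimulated culture stood against both times, as the contralateral nerve stood against both segments of the cut nerve.

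The deposited scans and the deposited value table name the arrays in conflicting ways, and every value below follows the headings of the table. Each of the 8 table columns ranked its probes as 1 scan did, and for 7 of them that scan was recorded under another sample. Only the distal nerve had the same array by both. Read by the scan records, many of the directions below turn; those values stand in the closing section. By the headings, the summed level of 7 neuron markers was 17.30 and 15.87 on the cord arrays and 10.62 to 13.28 on the other 6 (log2). The summed level of 10 macrophage markers was 8.98 to 9.33 in the Schwann cells and 15.50 to 17.91 in nerve and cord. In the cultures the macrophage markers Cd163, Msr1, Fcgr1a and Itgam were not well above background. The summed level of 7 fibroblast markers was 18.47 to 18.76 in the cultures, near that of the contralateral nerve (19.33) and above the cord arrays (14.81 and 16.92). That sum follows the brightest genes. Taken singly, 5 of the 7 were at least 2-fold lower in the unstimulated culture than in the contralateral nerve, with a median of -5.35. Dcn and Lum were not well above background in culture. Only Col1a1 was at least 2-fold higher, at 17.97 unstimulated against 16.94 in the contralateral nerve. The share of probes well above background ran from 66.72% (Schwann cells at 1 h) to 77.55% (proximal nerve).

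Cholesterol is built from acetyl-CoA through mevalonate to squalene, which is closed into lanosterol and then trimmed to cholesterol. When sterol is scarce in the endoplasmic reticulum, Scap escorts the SREBP transcription factors onward and the synthesis genes are switched on together, while Insig proteins hold the complex back. When sterol is plentiful, its oxidised forms activate LXR, which drives the exporters Abca1 and Abcg1 and the carrier Apoe. Myelin is rich in cholesterol, and Schwann cells and oligodendrocytes make much of it themselves, while macrophages that take up myelin debris must export or store what they ingest.

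The synthesis enzymes sit at scattered loci, and a promoter window from RefSeq (rat build GRCr8) was found for 25 of the 31 members with values; each window ran from 250 bases before the start of the gene to 50 after it. The promoters of 3 enzymes and of Abca1 are shown, because these enzymes and this exporter differed in opposite directions in nerve and cord. Only the 250 bases before the start are printed, 5′ to 3′ on the strand of the gene. Capitals mark the CCAAT box, the site of the factor NF-Y, read on either strand as CCAAT or ATTGG.
Hmgcs1, chr2:53382054-53382303, plus strand: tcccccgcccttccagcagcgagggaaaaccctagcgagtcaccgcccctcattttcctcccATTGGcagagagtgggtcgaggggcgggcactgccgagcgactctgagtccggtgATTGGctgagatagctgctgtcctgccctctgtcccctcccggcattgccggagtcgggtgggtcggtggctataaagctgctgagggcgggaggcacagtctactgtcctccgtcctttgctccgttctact
Idi1, chr17:66547525-66547774, minus strand: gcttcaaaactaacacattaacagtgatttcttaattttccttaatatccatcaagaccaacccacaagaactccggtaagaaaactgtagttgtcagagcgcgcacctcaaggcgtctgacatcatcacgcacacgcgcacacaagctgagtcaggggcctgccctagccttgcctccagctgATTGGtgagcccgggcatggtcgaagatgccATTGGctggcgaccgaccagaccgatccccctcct
Msmo1, chr16:29746863-29747112, plus strand: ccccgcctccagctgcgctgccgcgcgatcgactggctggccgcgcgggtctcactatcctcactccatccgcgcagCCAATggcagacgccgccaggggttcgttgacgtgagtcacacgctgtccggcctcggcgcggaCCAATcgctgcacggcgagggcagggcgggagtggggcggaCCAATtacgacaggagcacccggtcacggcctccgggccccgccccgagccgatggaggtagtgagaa
Abca1, chr5:72596474-72596723, minus strand: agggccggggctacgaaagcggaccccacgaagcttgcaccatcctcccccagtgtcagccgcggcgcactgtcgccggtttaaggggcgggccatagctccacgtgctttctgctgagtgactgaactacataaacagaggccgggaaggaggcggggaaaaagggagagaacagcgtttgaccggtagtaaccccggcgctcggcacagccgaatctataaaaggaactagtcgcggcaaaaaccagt

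Msmo1 held 3 such boxes, the first 173 bases before the start and the others at 109 and 68. Hmgcs1 held 2, at 188 and 133 bases before the start, and Idi1 held 2, at 66 and 35. Over the full windows of 300 bases, CCAAT was present on either strand in 12 of 15 synthesis genes (80%), 3 of 4 regulators, 1 of 2 uptake and transport genes and 2 of 4 efflux and storage genes. Across all 33469 promoter windows the share was 37.5%, and across the windows of 10422 genes with deposited values it was 38.6%. The 3 synthesis genes without the letters in the window were Acat2, Cyp51 and Dhcr7. Mvk and Nsdhl held the most, 5 each. An exact sterol regulatory element, TCACNCCAC on either strand, was in none of the 25 windows and in 1.12% of all windows. An exact LXR element, AGGTCA repeated directly with a gap of 4 bases, was in none and in 0.00598% of all. Forms of these 2 motifs with other letters were not searched, so the counts do not show that the promoters lack such sites. With no exact match to the other motifs, no CCAAT box overlapped one. A match describes a sequence, not binding.

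Each value is the log2 value of the table for the brightest probe of a gene. Where a difference is given with ±, the error comes from the spread between replicate spots, carried into the difference. That spread was pooled over all probes of like brightness on an array, then scaled to the number of spots of the gene. Npc1 had 1 spot, so its error rests on other probes alone. The error is technical and says nothing of the spread between animals or cultures. With 1 array a group there is no test across samples, so "at least 2-fold" is a size, not a significance. Of the 31 members, 30 were well above background on all 8 arrays and none was saturated. Abcg1 was above background on the 5 tissue arrays only.

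**Figure D1:**
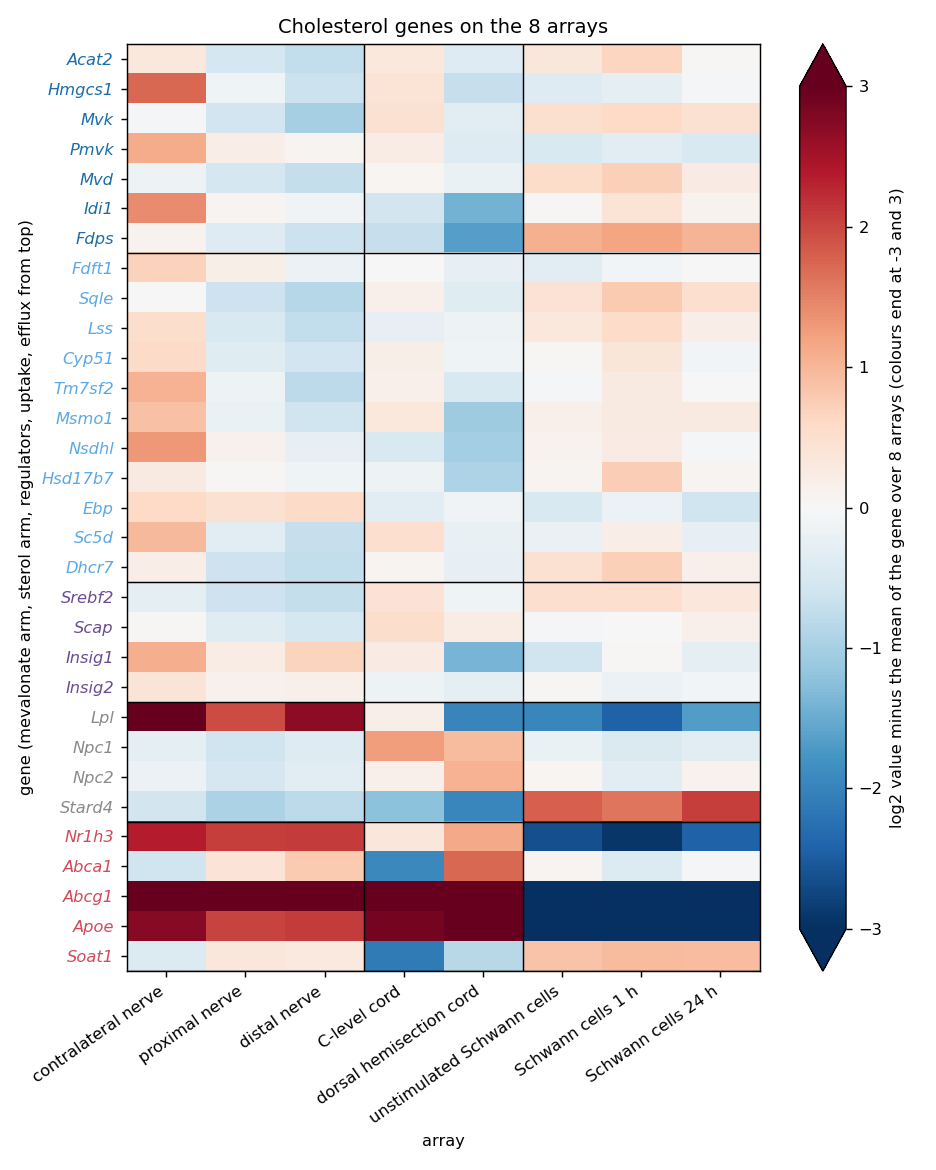
Log2 value of each of 31 genes (rows, grouped by role) on each of 8 arrays (columns), minus the gene's mean over the 8 arrays; red is above and blue below that mean, with colours ending at -3 and 3. The contralateral nerve is the reddest nerve column for the synthesis rows, and 3 of the 5 efflux rows (Nr1h3, Abcg1 and Apoe) separate tissue from cultured cells; the Abcg1 values of the 3 cultures lie below background.

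In the cut nerve the enzymes of cholesterol synthesis were lower than in the contralateral nerve. Distal to the cut all 18 lay below the contralateral level, with a median log2 difference of -1.05, and 10 were at least 2-fold lower, against 14.3% of 12131 genes measured. The count was 8 with the matched scans scaled to their 75th percentile and 9 with normexp background correction and quantile normalization. Ebp lay above 0 in both, at 0.12 and 0.11. All genes together had a median of 0.01. Proximal to the cut all 18 again lay below, with a median of -0.88, and 6 were at least 2-fold lower, against 11.8% of 12242 genes. Below 0 without regard to size were 49% of all genes in the distal and 49.6% in the proximal comparison. Both comparisons share the contralateral array, so they are not independent of each other. In these pools of whole tissue, fewer cells of a type and less RNA per cell cannot be told apart.

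In the mevalonate arm, Hmgcs1 (NM_017268), the synthase that makes HMG-CoA, stood at 16.69 in the contralateral nerve, 14.84 in the proximal and 14.33 in the distal segment. It was 5.15-fold lower distally (-2.36 ± 0.07) and 3.61-fold lower proximally (-1.85 ± 0.07), the lowest ratio of any member in both. Idi1 (NM_053539), the isomerase of the isoprene units, was at 14.16, 12.81 and 12.63 on the same arrays, differences of -1.53 ± 0.08 distally and -1.35 ± 0.08 proximally. Acat2, the thiolase of the first condensation, was at 13.52, 12.67 and 12.47, and Pmvk, a mevalonate pathway kinase, at 12.50, 11.59 and 11.46. Both were just past 2-fold distally, at -1.05 each, and short of it proximally, at -0.85 and -0.91. The distal calls did not hold throughout: Acat2 was at -0.97 under percentile scaling and -0.99 under normexp, and Pmvk at -0.99 under percentile scaling. The other mevalonate genes differed less. Mvk, which phosphorylates mevalonate, was at -0.95 and -0.53, Fdps, which makes farnesyl diphosphate, at -0.74 and -0.49, and the decarboxylase Mvd at -0.55 and -0.36, distal first.

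In the sterol arm, Tm7sf2, a reductase of the early sterols, ran from 11.11 in the contralateral nerve through 9.91 proximally to 9.26 distally (-1.84 ± 0.10 distally, 3.58-fold lower). Sc5d, a sterol desaturase, ran from 11.22 through 9.91 to 9.57 (-1.65 ± 0.10). Nsdhl, a dehydrogenase that acts in the removal of methyl groups, ran from 10.86 through 9.69 to 9.31 (-1.55 ± 0.10). Msmo1 (NM_080886), the monooxygenase of the same step, ran from 16.32 through 15.24 to 14.85 (-1.47 ± 0.07). These 4 were also at least 2-fold lower proximally, with differences between -1.08 and -1.31; Msmo1, the nearest to the limit, was at -0.90 proximally under percentile scaling. Lss, which closes the ring, and Cyp51, which demethylates lanosterol, were 2.40-fold and 2.20-fold lower distally (-1.26 and -1.14) and -0.98 and -0.92 proximally. Squalene synthase Fdft1 (-0.86), the epoxidase Sqle (-0.85) and Dhcr7 (-0.96), the reductase of the last step, fell short of 2-fold distally. Hsd17b7 was at -0.39 ± 0.11, and the isomerase Ebp was at -0.01 ± 0.08, within its spot error. Ebp had the level 13.01 contralaterally, 12.87 proximally and 13.00 distally.

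The 2 segments of the cut nerve differed less from each other. For 17 of the 18 enzymes the levels ran in 1 order, contralateral above proximal above distal, an order held by 27.2% of all genes; Ebp was the exception. The distal minus proximal median was -0.24, and no enzyme was 2-fold apart (1.94% of all genes were lower and 1.24% higher by that much, 237 and 151 genes, or 299 and 96 under percentile scaling). By more than 2 spot errors, 16 of 18 were below 0, but the share of all genes beyond that limit was not counted. The widest gaps were those of Tm7sf2 (-0.64 ± 0.10) and Hmgcs1 (-0.51 ± 0.05). Distal values were the higher ones, as for 52.6% of all genes, for all 4 uptake and transport genes, led by Lpl (0.72 ± 0.03), and for Insig1 (0.43 ± 0.06). All 6 adipocyte markers measured were also higher distally than proximally, with a median of 0.67.

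**Figure D2:**
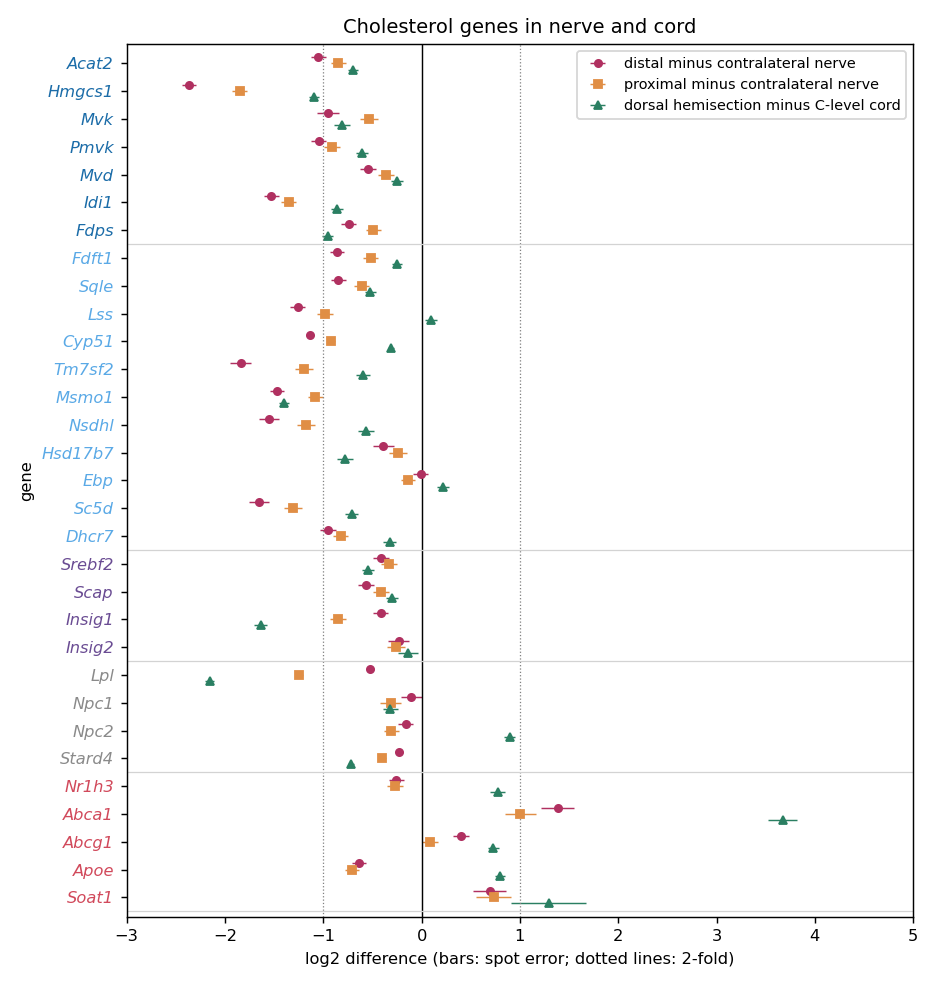
Log2 difference of each gene (rows, in order of role) in 3 comparisons: distal minus contralateral nerve (circles), proximal minus contralateral nerve (squares) and dorsal hemisection minus C-level cord (triangles). Bars are the spot error and dotted lines mark 2-fold; the enzymes lie to the left of 0 in the upper rows, except Lss (0.10) and Ebp (0.22) in the cord comparison and Ebp at 0 distally, and Abca1 reaches 3.67 in the cord comparison.

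The sensors of sterol differed less than the enzymes in nerve. Srebf2, the SREBP that acts on cholesterol genes, was at 11.77 in the contralateral nerve, 11.44 proximally and 11.36 distally, and its escort Scap at 10.79, 10.38 and 10.23. Insig1, itself a target of SREBP, was lowest in the proximal segment, at 11.29, with 11.73 distally and 12.14 contralaterally. Insig2 differed by -0.26 ± 0.09 proximally and -0.23 ± 0.11 distally. None of the 4 was 2-fold apart in either segment.

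On the side of uptake, Lpl (NM_012598), the lipase that frees fatty acids from circulating lipoproteins, was at 12.16 in the contralateral nerve, 10.92 proximally and 11.64 distally. The proximal difference of -1.25 ± 0.04 was 2.37-fold, and the distal one of -0.52 ± 0.04 was 1.44-fold. The summed level of 6 adipocyte markers ran in the same order on the 3 arrays, 16.06, 14.86 and 15.49; its part in the Lpl values was not tested. Npc1 and Npc2, which release cholesterol from lysosomes, were at -0.31 each proximally and at -0.11 ± 0.11 and -0.16 ± 0.08 distally. The sterol carrier Stard4 had 2 probes that disagreed in nerve: the brighter gave -0.22 distally and -0.40 proximally, the dimmer 1.07 and 0.55.

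The genes of export and storage lay on both sides of the contralateral level. Abca1 (NM_178095), which loads cholesterol onto apolipoproteins, was at 8.0 in the contralateral nerve, 9.00 proximally and 9.38 distally. It was 2.61-fold higher distally (1.38 ± 0.17) and 2.01-fold higher proximally (1.01 ± 0.16), where 13.4% and 11.1% of all genes were at least 2-fold higher. Under normexp and percentile scaling the proximal value was 0.89 and 0.97, short of 2-fold. Soat1, which esterifies cholesterol for storage in droplets, was at 6.45, 7.18 and 7.15 on the 3 arrays (0.73 ± 0.18 proximally, 0.69 ± 0.17 distally). Abcg1, the exporter to lipoprotein particles, differed by 0.40 ± 0.08 distally and 0.08 ± 0.08 proximally. Nr1h3, which encodes LXR alpha, differed by -0.26 and -0.27. Apoe, the lipid carrier, was lower in both segments, at 17.01 contralaterally, 16.30 proximally and 16.38 distally.

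Cell markers moved with these values in the nerve. Of 9 myelinating Schwann cell markers, 7 were lower by at least 2-fold distally, with a median of -2.09, and 6 proximally, with a median of -1.38. Of 10 macrophage markers 8 were at least 2-fold higher distally (median 2.29) and 7 proximally (1.86), and the summed macrophage level ran from 16.97 contralaterally to 17.75 and 17.91. Of 8 neutrophil markers 6 were at least 2-fold higher distally (median 3.53) and 7 proximally (4.53), while 1 lay below 0 in each segment. Of 7 fibroblast markers 5 were lower by at least 2-fold distally (median -1.48) and 4 proximally (median -1.23). The 5 general Schwann cell markers went both ways. Lower by at least 2-fold were 3 distally (median -1.48) and 2 proximally (median -0.94), while Ngfr was at least 2-fold higher in both segments. All 8 muscle markers were at least 2-fold higher in the proximal segment, with a median of 5.12. Distally 6 of the 7 measured were, with a median of 1.65. All of these lists had members well above background on each of the 3 arrays, but not every member was. Clec4d and Mmp8 were not in the contralateral nerve, and Myh2 was not there or distally. Differences against such a value are bounds. The part of cell composition in the values of the cholesterol genes was not tested.

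Other genes of the pathway, from a fixed list of 36 of which 33 were measured, went both ways in the nerve: 6 were at least 2-fold higher and 6 lower distally, and 6 higher and 5 lower proximally. The shares of all genes were 13.4% higher and 14.3% lower distally, and 11.1% and 11.8% proximally. The largest differences on the list were those of the apolipoprotein Apoc1 (2.60 distally and 2.78 proximally), the droplet coat Plin2 (2.10 and 2.02), and, distally, the lysosomal lipase Lipa (1.71). Pltp, which transfers phospholipid, was the third proximally, at -1.88. Among 11 genes of fatty acid synthesis, which SREBP proteins also regulate, 6 were at least 2-fold lower in each segment, with medians of -1.39 distally and -1.24 proximally. The lowest were Elovl6 (-2.29 and -2.06), Fasn (-1.98 and -1.71) and Scd (-1.71 and -2.57), distal first.

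In the spinal cord the dorsal hemisection sample had lower levels of synthesis genes than the C-level control and higher levels of all 5 efflux and storage genes. The 18 enzymes had a median of -0.60; 16 lay below 0, against 52.5% of 12196 genes, and 2 were at least 2-fold lower, against 9.24%. These were Msmo1, at 15.77 in the C-level and 14.37 in the hemisection sample (-1.40 ± 0.05), and Hmgcs1, at 15.37 and 14.28 (-1.09 ± 0.05). Under normexp and under percentile scaling Hmgcs1 was at -0.94 and -0.80, which left 1. Fdps went from 12.63 to 11.67 (-0.96), Idi1 from 12.19 to 11.32 (-0.86) and Mvk from 9.18 to 8.37 (-0.81). Lss (0.10 ± 0.06) and Ebp (0.22 ± 0.06) lay above 0.

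Among regulators and uptake genes of the cord, Insig1 was 3.11-fold lower in the hemisection sample, at 9.68 against 11.31 (-1.64 ± 0.07). Lpl was 4.45-fold lower, at 6.98 against 9.13 (-2.15 ± 0.05), with only 0.804% of measured genes lower still. The adipocyte markers were lower beside it, 5 of 6 by at least 2-fold, against 9.24% of all genes, with a summed level of 9.34 against 12.47. Adipoq and Cidec were not well above background in the hemisection sample. Stard4 was at -0.71 ± 0.03. Npc2 was higher, at 14.26 against 13.37 (0.89 ± 0.05), and its partner Npc1 lower, at 13.64 against 13.96 (-0.32 ± 0.08).

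Abca1 had the highest ratio of any member, 12.7-fold, with 6.67 in the C-level and 10.34 in the hemisection sample (3.67 ± 0.15), at percentile 99.7 of all genes measured. The difference was 2.94 under normexp and 3.24 under percentile scaling. Soat1 followed, at 4.74 and 6.03 (1.29 ± 0.38), a dim gene whose difference was 0.40 under normexp. Apoe was at 17.16 and 17.96 (0.80 ± 0.05), Nr1h3 at 9.82 and 10.60 (0.78 ± 0.08) and Abcg1 at 12.55 and 13.28 (0.73 ± 0.05). At least 2-fold higher were 2 of the 5, against 10.2% of all genes, and all 5 lay above 0, against 47.2%. The count was 3 under percentile scaling, where Apoe was at 1.56 and the median moved from 0.80 to 1.22, and 1 under normexp. Of the other sterol genes Apoc1 was at 4.36, Pltp at 2.15 and Plin2 at 1.82.

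Markers moved with the cord values as well. Of 10 macrophage markers 9 were at least 2-fold higher in the hemisection sample (median 2.09, summed level 17.67 against 15.50), and of 7 fibroblast markers 5 (median 2.12). The shares of all genes were 10.2% higher and 9.24% lower by that much. Of 7 neuron markers 6 were at least 2-fold lower (median -1.34, summed level 15.87 against 17.30). Of 7 oligodendrocyte markers 2 were (median -0.42, summed level 14.96 against 15.36). The astrocyte list had a median of 0.06. Their part in the differences of the cholesterol genes was not tested.

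**Figure D3:**
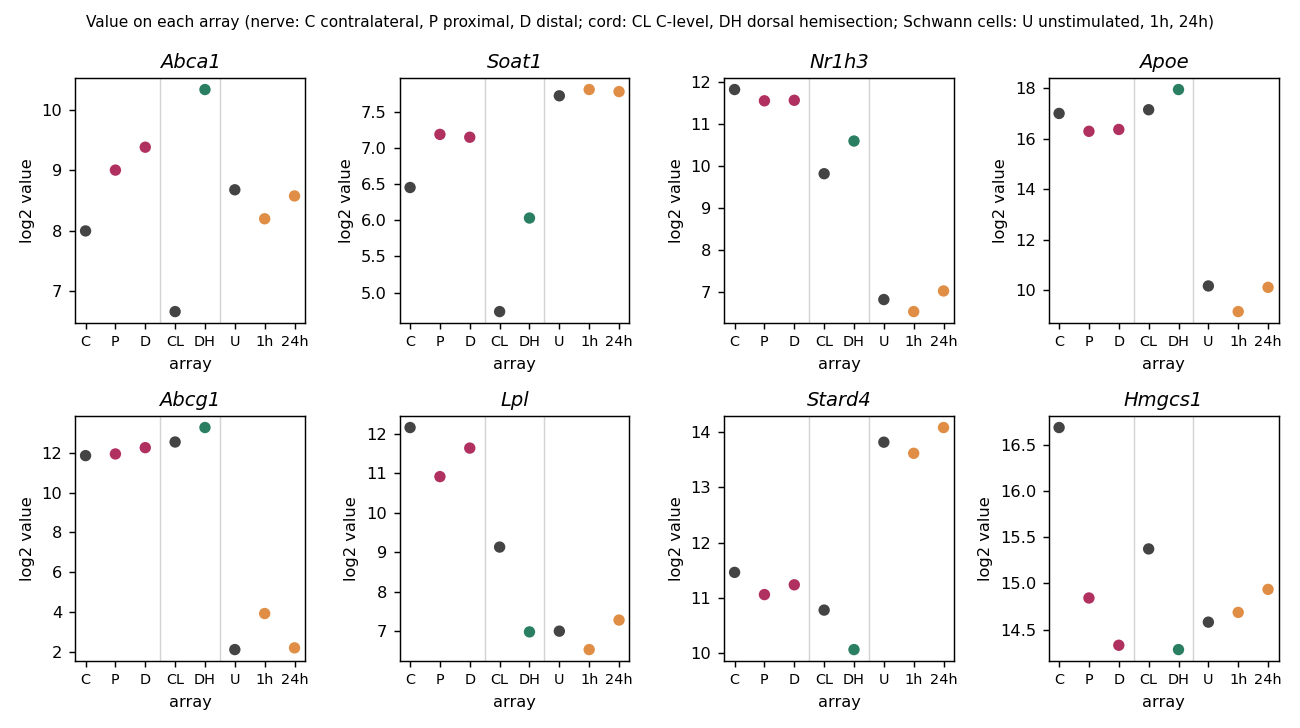
Log2 value of 8 genes on each array, 1 panel a gene with its own axis: contralateral (C), proximal (P) and distal (D) nerve, C-level (CL) and dorsal hemisection (DH) cord, and unstimulated (U), 1 h and 24 h Schwann cells. Abca1 is lowest in the C-level cord (6.67) and highest in the hemisection sample (10.34), Hmgcs1 is highest in the contralateral nerve (16.69), and the Abcg1 points of the cultures lie below background.

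In cultured Schwann cells the differences after S100A8/A9 were small. At 1 h all 18 synthesis enzymes lay above the unstimulated culture, where 47% of 10968 genes did, with a median of 0.25 and a range from 0.11 to 0.64. None was 2-fold apart, as were 1.69% of genes upward and 1.34% downward. By more than 2 spot errors, 15 of 18 were above 0, but the share of all genes beyond that limit was not counted. Hsd17b7, a reductase of the sterol arm, had the largest difference, at 9.27 unstimulated, 9.92 at 1 h and 9.25 at 24 h (0.64 ± 0.08 at 1 h). Sc5d was at 10.04, 10.46 and 10.01 on the same arrays, and Idi1 at 12.78, 13.16 and 12.85. Insig1 ran alongside, at 10.47, 11.10 and 10.76 (0.63 ± 0.06 at 1 h). Srebf2 was at -0.01 ± 0.05 and Scap at 0.07 ± 0.06.

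At 24 h the enzymes lay on both sides of the unstimulated culture, 6 above and 12 below, where 49.8% and 49.9% of 11025 genes lay, with a median of -0.03. None was 2-fold apart, as were 0.635% of genes upward and 0.626% downward. Hmgcs1 (0.36 ± 0.05) and Fdft1 (0.34 ± 0.05) had the highest differences, and Acat2, Mvd and Dhcr7 the lowest, at -0.30 each. Between 24 h and 1 h the median was -0.30, with 15 of 18 below 0, against 47.4% of all genes, and none 2-fold apart (1.86% of genes were higher and 2.03% lower by that much). The 1 h culture held the highest of the 3 levels for 15 of 18 enzymes, an order found in 37.2% of all genes; Hmgcs1, Fdft1 and Msmo1 were highest at 24 h. All of these comparisons use 3 arrays between them, and the 2 with the unstimulated culture share it. The unstimulated culture was collected at 24 h, so time in culture and the 1 h treatment cannot be told apart. Of 9 myelinating Schwann cell markers 3 were at least 2-fold lower at 1 h (median -0.76), against 1.34% of all genes. At 24 h all 9 lay above the unstimulated level (median 0.26). The part of these markers was not tested.

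The genes of uptake, transport and export ran the other way at 1 h. All 4 of uptake and transport lay below the unstimulated culture, where 52.4% of all genes did: Lpl at -0.47 ± 0.10, Npc2 at -0.39 ± 0.05, Npc1 at -0.25 ± 0.08 and Stard4 at -0.20 ± 0.02. These 4 had their lowest level of the 3 cultures at 1 h, as 41.8% of all genes did. The dimmer probe of Stard4 gave 0.30. Apoe was at 10.18 unstimulated, 9.16 at 1 h and 10.12 at 24 h. It was the only member 2-fold apart after stimulation (-1.01 ± 0.07 at 1 h), and under normexp its difference was -0.92. Abca1 was at 8.68, 8.20 and 8.58 (-0.48 ± 0.09 at 1 h), Nr1h3 at 6.83, 6.55 and 7.04, and Soat1 at 7.72, 7.80 and 7.78. At 24 h the 4 measured efflux and storage genes had a median of 0.00 and each lay within 2 spot errors of 0.

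**Figure D4:**
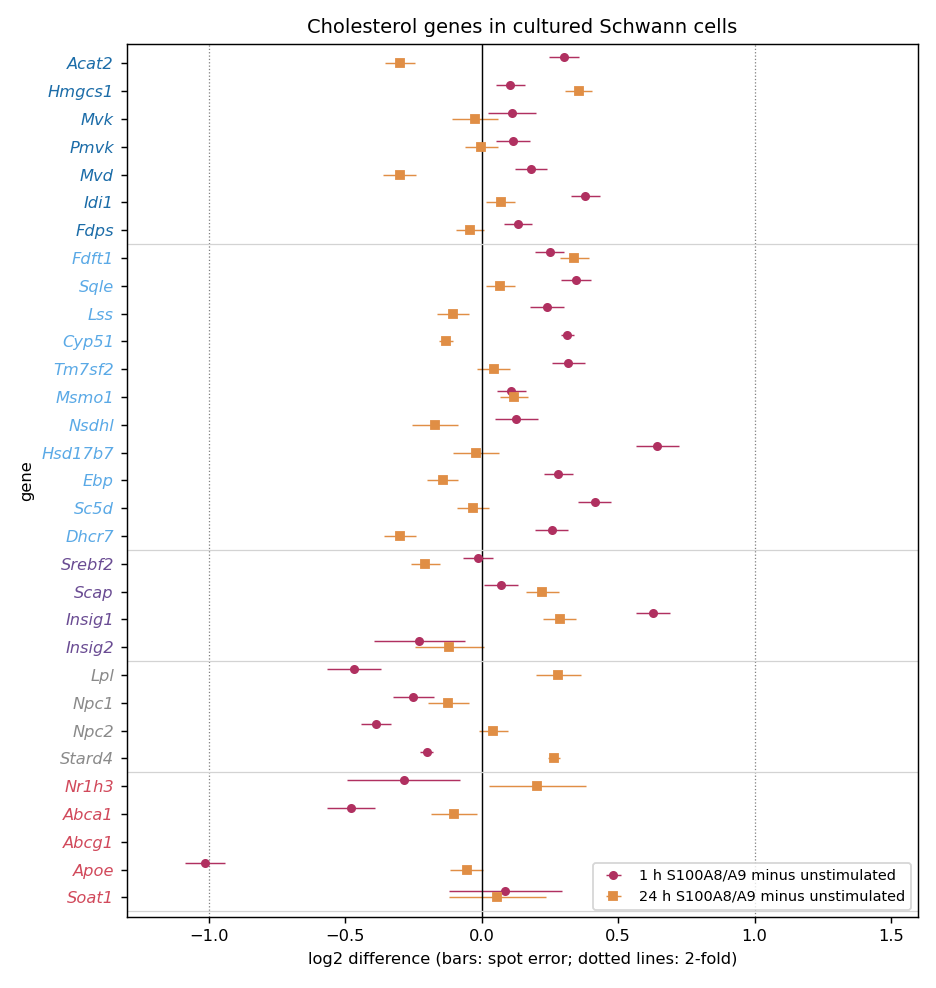
Log2 difference of each gene (rows, in order of role) in Schwann cells after 1 h (circles) and 24 h (squares) of S100A8/A9, each minus the same unstimulated culture. Bars are the spot error, dotted lines mark 2-fold, and Abcg1 has no point because it was not above background; the 18 enzymes lie at or above 0.11 at 1 h and on both sides of 0 at 24 h.

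Among the members, the unstimulated cultures and the uncut nerve differed most in Abcg1, Apoe, Lpl and Nr1h3. Against the contralateral nerve, Apoe was 114-fold lower in the cultures (-6.83 ± 0.08), Lpl 36-fold lower (-5.17 ± 0.07) and Nr1h3 31.7-fold lower (-4.99 ± 0.15). Abcg1, not above background in culture, was at least 375-fold lower (at most -8.55), a bound that was at most -5.21 under normexp. Under normexp Lpl was at -4.35 and Nr1h3 at -4.14. Soat1 was higher, at 7.72 against 6.45 (1.27 ± 0.20), but by 0.87 under percentile scaling and 0.90 under normexp, and Abca1 was higher by 0.68 ± 0.16. Stard4 was 5.12-fold higher, at 13.82 against 11.46 (2.36 ± 0.03), and its dimmer probe gave 3.34. Of the enzymes 8 were at least 2-fold lower in culture and none higher, against 20.8% and 21.5% of 11943 genes; the median was -0.62, beside 0.22 for all genes. Under percentile scaling 6 were lower and 1 higher (Fdps, 1.14), and under normexp 6 were lower. Hmgcs1 (-2.11), Pmvk (-1.57) and Idi1 (-1.38) had the lowest differences, and Fdps (0.96) and Mvd (0.70) the highest. Cell markers differed between them too: all 10 macrophage and all 6 adipocyte markers were at least 2-fold lower in culture, with medians of -5.55 and -8.21, and their part was not tested.

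Few enzymes were 2-fold apart between contralateral nerve and C-level cord, the 2 control tissues, and no larger a share than of all genes. Idi1 was 3.91-fold higher in nerve (1.97 ± 0.08), Nsdhl 3.40-fold (1.77 ± 0.09) and Hmgcs1 2.49-fold (1.32 ± 0.07), and these 3 were the enzymes at least 2-fold apart; 19.8% of 12214 genes were that much higher in nerve and 18.3% lower. The median of the 18 was 0.62, with 14 above 0, against 53.7% of genes. Lpl was 8.19-fold higher in nerve (3.03 ± 0.04), Nr1h3 4.00-fold, Soat1 3.28-fold (1.71 ± 0.40) and Abca1 2.52-fold (1.33 ± 0.20). Soat1 was at 0.63 under normexp, and Abca1 at 0.86 under normexp and 0.99 under percentile scaling, short of 2-fold. Npc1 was 2.92-fold higher in cord (-1.54 ± 0.11). Apoe differed by -0.15 ± 0.07, at 17.01 in nerve and 17.16 in cord, and by 0.27 under percentile scaling. Cell markers differed between these tissues too. Of 6 adipocyte markers 5 were at least 2-fold higher in nerve (median 3.86), of 10 macrophage markers 7 (1.31), and of 7 fibroblast markers all (4.75). All 7 neuron, 6 astrocyte and 7 oligodendrocyte markers were at least 2-fold lower in nerve, with medians of -7.46, -3.58 and -5.86. The part of the markers was not tested. The contralateral array enters 4 of the comparisons, and these are not independent of each other.

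Over all arrays of a tissue, some members separated the tissues whatever the condition. A gene was counted where no array of 1 tissue overlapped the other and the medians were at least 2-fold apart. Nerve lay above cord for Idi1, Lpl, Nr1h3 and Soat1 (4 of 31, against 15.6% of all genes), and cord above nerve for Npc1 and Apoe (2 of 31, against 15.3%). Nerve lay above the cultures for Ebp, Lpl, Nr1h3, Abcg1 and Apoe (5 of 31, against 17.2%), and the cultures above nerve for Mvk, Mvd, Fdps, Sqle, Srebf2 and Stard4 (6 of 31, against 16.4%). Cord lay above the cultures for Npc1, Nr1h3, Abcg1 and Apoe (4 of 31, against 22.6%), and below them for Idi1, Fdps, Stard4 and Soat1 (4 of 31, against 24.4%). None of these shares was far above that of all genes. By role, 1 of the 18 enzymes met the rule between nerve and cord, and 3 of the 5 efflux and storage genes lay higher in both tissues than in the cultures. The arrays of 1 tissue are different conditions and not replicates.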

How the data were processed

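Total RNA was hybridised, 1 array a group, to 8 one-colour Agilent arrays, all on 1 slide and scanned on 1 day. Per the file headers, Feature Extraction 10.7.3.1 made the deposited scans, whose intensity values are background-subtracted; the submitters' processing notes name Agilent Feature Extraction 10.5. The authors' deposited value table holds log2 values for 24894 probes and 44 controls. All its columns have the median 8.031, by a normalization not given in the sources used here. Columns were used by their headings, with background flags and spot errors read from the scan of the same ranking. Probe accessions, without versions, were matched to RefSeq names (GRCr8; the headers name rn4): 15213 probes matched, with 12765 symbols. The probe with the highest mean over 8 arrays stood for a gene. Genes well above background on 1 of 2 arrays were compared, the dim side raised to the lowest value well above background on its array, which gives bounds. At least 2-fold (log2 1) counted as apart; no test is possible with 1 array a group.

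The members, lists and comparisons were chosen with earlier results of these data known. All members are named; of other lists, at most the 3 largest differences at least 2-fold apart in a comparison. Some items are not reported here. Alternatives were the scans as recorded, the matched scans scaled to the 75th percentile, and normexp on the matched scans. The others were the mean of all probes, no filter, and both arrays above background. Normexp (offset 50, limma 3.58.1 in R 4.3.3) used the median spot and background signals before subtraction, with quantile normalization after it. Its values thus differ from the main ones in signal and normalization too. The differences of single genes were tested on simulated data, with known shifts in bright genes and spot noise. The list statistics were not simulated. Python 3.11.15 was used.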

Additional observations from a re-analysis of the deposited data

Results flagged for a closer look

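Some members differed in opposite directions in 2 comparisons of the same kind, each by more than 2 spot errors. The share of all genes that did so was not counted, and with 1 array a group none of these differences was tested. Between 1 h and 24 h of S100A8/A9, each against the same unstimulated culture, 5 enzymes were above it at 1 h and below it at 24 h: Acat2 (0.30 and -0.30), Mvd (0.18 and -0.30), Cyp51 (0.31 and -0.13), Ebp (0.28 and -0.14) and Dhcr7 (0.26 and -0.30). Lpl (-0.47 and 0.28) and Stard4 (-0.20 and 0.26) went the other way. For Stard4 this held on the brighter probe only, as the dimmer one gave 0.30 and 0.06.

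Between nerve and cord, 3 genes were lower in both segments of the cut nerve and higher in the dorsal hemisection sample, each against its own control. Npc2 was at -0.16 distally, -0.31 proximally and 0.89 in the cord, Nr1h3 at -0.26, -0.27 and 0.78, and Apoe at -0.63, -0.71 and 0.80. The difference was not tested.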

How the results depend on the processing

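All results rest on 1 array a group and on the column headings. Of 49 member differences at least 2-fold apart, 40 stayed so on the matched scans at the 75th percentile and 39 under normexp on those scans. All 49 stayed with the mean of all probes or with no filter, and all 48 with both arrays above background. None reversed in these settings. The probe mean and the filters could change little. Only Fdps, Npc1 and Stard4 had more than 1 probe, and 30 of 31 members were well above background on all 8 arrays. No paired analysis was possible because each group has 1 array, and for the same reason no replicate could be left out.

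With the scans as recorded, whose names then fall on other arrays, 5 of 49 stayed and 30 reversed. By rank, the scan recorded as contralateral nerve is the column of the hemisection cord, and that recorded as proximal nerve is the column of the 1 h culture. The synthesis median was then 0.0295 distally, 0.92 proximally, 0.0413 in cord, 0.41 for culture minus nerve and -0.52 for nerve minus cord, all reversed, and 0.84 at 1 h and 0.0651 at 24 h. The efflux and storage median reversed to -0.85 distally, -4.44 proximally and, between 24 h and 1 h, -0.99; it was -1.19 for culture minus nerve and 3.85 for nerve minus cord. Reversed distally were Hmgcs1 (0.30), Pmvk (0.50), Idi1 (1.38), Msmo1 (0.73), Nsdhl (0.61) and Abca1 (-0.92). Reversed proximally were Hmgcs1 (0.78), Idi1 (2.10), Tm7sf2 (0.67), Msmo1 (1.68), Nsdhl (1.07), Sc5d (0.45) and Abca1 (-2.32). In cord Soat1 (-0.0365) and at 1 h Apoe (0.51) reversed. For culture minus nerve these were Hmgcs1 (0.86), Pmvk (0.62), Idi1 (1.56), Fdft1 (0.60), Tm7sf2 (0.23), Nsdhl (0.98), Ebp (0.68), Insig1 (1.56), Lpl (3.51) and Nr1h3 (0.97). For nerve minus cord they were Hmgcs1 (-0.85), Idi1 (-1.69), Nsdhl (-0.75), Npc1 (0.99) and Soat1 (-0.94).

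On the matched scans at the 75th percentile the synthesis median moved to 0.32 at 1 h, -0.48 for culture minus nerve and 0.80 for nerve minus cord, and the efflux and storage median to -5.25 and 0.99 for the last pair of comparisons. Normexp moved the synthesis median to -0.80 proximally and -0.53 for culture minus nerve, and the efflux and storage median to 0.23 proximally, -4.14 for culture minus nerve and 0.63 for nerve minus cord. With both arrays above background, which drops Abcg1 in culture, the efflux and storage median for culture minus nerve was -2.15. The cause of the other shifts was not tested.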
